A study of Mus musculus with 12 samples.

Results

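The 6 genes described here are Zfp683, which encodes the transcription factor Hobit, Prdm1, which encodes its homologue Blimp-1, and the 4 genes that follow Zfp683 on mouse chromosome 4, namely Crybg2, Cd52, Ubxn11 and Sh3bgrl3. They were taken by symbol from the 43626 genes of the count matrix, and all 6 passed the filter on low counts. Zfp683 and Crybg2 had been chosen because their levels differed between the GFP+ libraries of the Het and KO groups, so that comparison is given for the 6 genes as a description, with no test. Prdm1 was chosen as the homologue of Zfp683 and the other 3 genes for their position. The libraries came from an adoptive transfer experiment on the T-box transcription factor Eomes. Naive CD45RBhi CD25- CD4+ T cells from donor mice with 1 floxed Eomes allele and 1 GFP reporter allele (Eomes flox/GFP) were transferred into adult male Rag2-/- mice, which lack T and B cells of their own but keep NK and myeloid cells. The cells were recovered from each spleen 3 weeks later and sorted by the reporter into GFP-positive (GFP+) and GFP-negative (GFP-) CD4+ T cells. Het donors carried no cre and so kept 1 functional Eomes allele, whereas KO donors carried Lck-cre, which deletes the floxed allele in the T lineage. All groups therefore lack at least 1 functional copy of Eomes. The Het GFP-, Het GFP+, KO GFP- and KO GFP+ groups had 3 libraries each. GFP+ and GFP- libraries of a genotype with the same replicate number came from the same recipient, so the 12 libraries came from 6 recipients. The labels do not state ages or how many donors there were.

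Hobit and Blimp-1 are zinc finger transcription factors that mainly repress their target genes. In mice they act together in tissue-resident memory T cells, NKT cells and type 1 innate lymphoid cells, where they hold down genes that let cells leave tissues, such as Klf2, S1pr1 and Ccr7. Blimp-1 is also expressed in activated effector T cells, where it restrains IL-2 and promotes IL-10, while Hobit in mice is best known from resident and innate-like lymphocytes. Eomes and the related factor T-bet control effector and memory programmes in the same lineages.

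The kinship of Hobit and Blimp-1 is shown by the coding sequence of the first pair of C2H2 zinc fingers, the part of both proteins that contacts DNA. The Zfp683 stretch was read from transcript Zfp683-201 of GENCODE M21 (GRCm38, chr4:134056133-134057496, plus strand, 2 exons joined) and the Prdm1 stretch from transcript Prdm1-201 (chr10:44440686-44441103, minus strand, 2 exons joined). Capitals mark the codons of the cysteines and histidines that hold the zinc ions.
Zfp683: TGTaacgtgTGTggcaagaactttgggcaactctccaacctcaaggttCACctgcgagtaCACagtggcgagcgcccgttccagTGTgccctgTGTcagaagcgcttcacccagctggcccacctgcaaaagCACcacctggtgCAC
Prdm1: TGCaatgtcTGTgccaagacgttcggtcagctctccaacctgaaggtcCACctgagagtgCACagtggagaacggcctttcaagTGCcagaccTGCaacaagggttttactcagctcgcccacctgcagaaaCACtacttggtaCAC
Of the 147 bases, 109 were identical, or 74.1%. The longest run of bases that the full transcripts shared, of 1471 bases for Zfp683 and 5281 bases for Prdm1, was 15 bases. GENCODE M21 lists Zfp683 as protein coding, whereas the RefSeq table used here lists it as a pseudogene.

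Zfp683 (ENSMUSG00000049410.8) lies on the plus strand at chr4:134053838-134058996 in GRCm38, in 5 exon blocks with 1471 exon bases. Crybg2 (ENSMUSG00000012123.11, plus strand, chr4:134065912-134092504) starts 6915 bases after its end. Cd52 (ENSMUSG00000000682.7) is on the minus strand at chr4:134082448-134095082, so its last exon lies inside Crybg2. Ubxn11 (ENSMUSG00000012126.12) follows on the plus strand at chr4:134102570-134127593. Sh3bgrl3 (ENSMUSG00000028843.8, minus strand, chr4:134127406-134128789) overlaps its 3' end. Prdm1 (ENSMUSG00000038151.8) is on another chromosome, on the minus strand at chr10:44437177-44528501. The overlaps matter for the counts. Crybg2 and Cd52 share 172 exon bases, which are 2.48% of the exon bases of Crybg2 and 14.5% of those of Cd52. Ubxn11 and Sh3bgrl3 share 188 exon bases, 3.96% and 22.9% of their lengths. Exons of Zfp683 and Prdm1 overlap no other gene of the matrix. The kit keeps the strand, but no source used here gives the strand setting of the counting. Of 78 genes lying wholly under exons of a well-counted gene on the opposite strand, 43.6% had at least 10 counts over the 12 libraries, against 1.59% of 63 genes lying under exons on the same strand. Genes under opposite-strand exons thus kept counts more often than those under same-strand exons. As the setting itself is not stated, reads in the shared bases of both pairs are reported as uncertain.

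RefSeq start sites (GRCm38.p6) gave promoter windows, from 250 bases before to 50 bases after the start, for 4 of the 6 genes: Crybg2, Prdm1, Ubxn11 and Sh3bgrl3. The start used lay at 134068452 for Crybg2 and at 44458748 for Prdm1. Both lie inside the gene spans given above, whose outer starts are 134065912 and 44528501. No window was matched for Zfp683 and Cd52. The window of Crybg2 is shown because this gene followed Zfp683 from library to library (chr4:134068202-134068501, plus strand), with capitals at its single match to a RUNX motif (TGTGGT or its reverse complement ACCACA).
Crybg2 promoter: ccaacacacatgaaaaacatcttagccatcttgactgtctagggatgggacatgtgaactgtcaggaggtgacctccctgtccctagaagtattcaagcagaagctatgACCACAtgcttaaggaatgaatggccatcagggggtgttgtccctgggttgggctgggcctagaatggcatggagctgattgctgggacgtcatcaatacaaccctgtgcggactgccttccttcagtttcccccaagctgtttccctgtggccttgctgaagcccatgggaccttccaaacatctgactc
The RUNX letters occurred in 16.8% of the 32851 promoter windows of the table, and in none of the other 3 windows. The T-box letters AGGTGT, found in 13.7% of all windows on either strand, the letters GAAAGT of the Blimp-1 and Hobit core, found in 14.3%, and the STAT letters TTCNNNGAA, found in 8.3%, had no match in the 4 windows. A match or its absence describes these letters in this window and nothing further.

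Total counts ranged from 11492908 to 18167236 in the 6 GFP- libraries, made from 645000 to 2100000 cells, and from 2116894 to 8608902 in the 6 GFP+ libraries, made from 18000 to 117000 cells. Of the GFP+ libraries, 2 stood apart, since the 4 features that exceeded 5% of any library took 58.3% of the counts of Het GFP+ replicate 2 and 54.3% of those of KO GFP+ replicate 2, against 16.3% to 30.9% elsewhere. KO GFP+ replicate 1 stood apart as well: without it the number of genes called between the KO sorts was 1760 in place of 17. Eomes itself was at 5.01 ± 3.7 CPM (read counts relative to library size, scaled by the trimmed mean of M values, TMM) in Het GFP-, 109 ± 17.4 in Het GFP+, 2.95 ± 1.54 in KO GFP- and 41.3 ± 8.44 in KO GFP+ cells (SD, n = 3 each). These counts cover the whole gene and do not check the deleted part. The CD4 T cell markers Cd4 and Cd3e were at 435 to 946 CPM and 127 to 240 CPM in all libraries, Cd8a did not exceed 2.14 CPM, the NK marker Ncr1 3.57 CPM and the NKT marker Zbtb16 0.973 CPM. The summed level of 8 markers of NK cells and ILC1 was higher in the GFP+ than in the GFP- library of 6 of 6 recipients (12.7 to 37.2 CPM in GFP- and 14 to 81.1 CPM in GFP+ libraries). Its 4 tested genes were split. From GFP- to GFP+ cells, mean Tyrobp rose (9.55 to 28 CPM in Het, 4.45 to 13.3 in KO), as did Fcer1g (6.64 to 20.9, 2.94 to 7.14). Klrb1c fell (4.6 to 1.62 CPM in Het, 6.57 to 3.19 in KO), and Klre1 was slightly lower (1.12 to 0.901, 4.15 to 3.91). The sum is therefore not read as a level of NK cells. The summed level of 6 markers of NKT and gamma-delta T cells was higher in 1 of 6, with 10 to 17.9 CPM in Het GFP-, 5.07 to 20.2 CPM in Het GFP+, 14.9 to 19.5 CPM in KO GFP- and 0.714 to 4.68 CPM in KO GFP+ libraries. The summed level of 10 myeloid markers was higher in the GFP+ than in the GFP- library of 6 of 6 recipients (39.3 to 1574 CPM in GFP- and 281 to 3676 CPM in GFP+ libraries), that of 7 erythroid markers was higher in 6 of 6, and that of 8 CD4 T cell markers was higher in 0 of 6 (2423 to 3507 CPM against 1939 to 2589 CPM). The part of these sums in the GFP differences was not tested. The sum of 4 Y-linked genes was 0 to 32 CPM in Het and 41.5 to 221 CPM in KO libraries; the labels do not give the sex of the donors, and donor sex and genotype cannot be told apart in comparisons between Het and KO. In these bulk samples, fewer cells of a type and less RNA per cell cannot be told apart either.

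Zfp683 had its lowest level in Het GFP+ cells and its highest in KO GFP+ cells. In Het GFP+ replicates 1, 2 and 3 it was at 2.27, 1.56 and 1.07 CPM, from 17, 4 and 11 counts. In the KO GFP+ replicates it was at 50.6, 62.1 and 72.1 CPM. The means of 1.63 ± 0.601 and 61.6 ± 10.8 CPM (SD, n = 3 each) are 37.7-fold apart, a fitted log2 fold change of -5.25 (SE 0.34) for Het minus KO; as the gene was chosen on this comparison, it has no test here. The GFP- cells lay between these groups. They held 15.8, 10.8 and 8.57 CPM in Het and 30.8, 29.6 and 39.2 CPM in KO replicates 1, 2 and 3. The 4 groups thus stood in the order Het GFP+, Het GFP-, KO GFP- and KO GFP+, and no library of one group reached the range of its neighbour. Genes whose Het and KO GFP+ groups did not overlap made up 7.48% of the 13238 genes tested, and 0.106% were called at a false discovery rate (FDR) of 0.05 in that comparison; since the gene was chosen on this comparison, nothing is read from these shares.

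**Figure D1:**
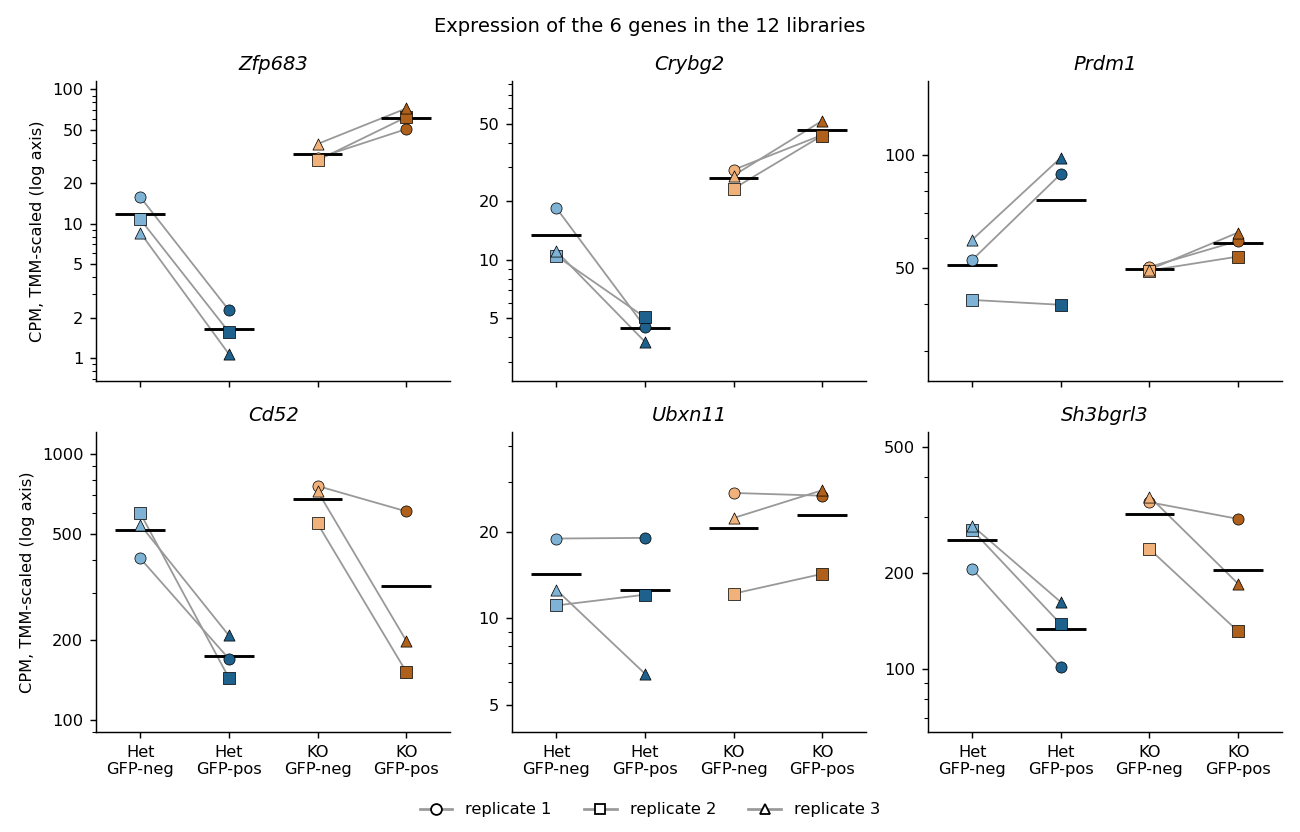
Level of each of the 6 genes in CPM (TMM-scaled, log axis, a range of its own in each panel) in the 12 libraries by group; symbols are replicates, grey lines join the sorts of a recipient and black lines are group means. Zfp683 and Crybg2 fall from GFP- to GFP+ cells in the Het recipients and rise in the KO recipients, while Cd52 and Sh3bgrl3 are lower in the GFP+ library of every recipient.

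The direction of the Zfp683 difference between the sorts was opposite in the 2 genotypes. In the 3 Het recipients the GFP+ cells had 6.98, 6.89 and 8-fold less Zfp683 than the GFP- cells, a mean log2 ratio of -2.86 ± 0.12 (SD, n = 3). In the 3 KO recipients they had 1.64, 2.1 and 1.84-fold more, a mean log2 ratio of 0.89 ± 0.18. The fitted difference between these contrasts was 3.74 (SE 0.42). Both contrasts share the libraries on which Zfp683 was chosen and are descriptions. The authors' deposited tables list Zfp683 with log2 fold changes of -2.39 between the Het sorts, 0.81 between the KO sorts and 4.02 between the GFP+ groups, the last with KO as the higher group.

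The GFP- libraries gave a comparison of genotypes whose values were not those used to choose the genes. They came from the same 6 recipients as the GFP+ libraries, and paired libraries deviated together from their group means (correlations of 0.256 to 0.666), so this comparison is not independent of the choice. Zfp683 was at 11.7 ± 3.72 CPM in Het and 33.2 ± 5.21 CPM in KO GFP- cells (SD, n = 3 each), 2.83-fold lower in Het, with no overlap of the libraries. The log2 fold change was -1.51 (SE 0.26). In edgeR's quasi-likelihood test over 13238 genes, with Benjamini-Hochberg adjustment, it did not pass (FDR 0.154, unadjusted p = 8.17e-05), nor did any other gene: 0% were called, with 695 genes at an unadjusted p under 0.05. DESeq2 called 40 of 15769 genes (0.254%), Zfp683 among them (log2 fold change -1.51, adjusted p = 0.000309), and edgeR without the filter on low counts also called it (FDR 0.00665). Over the alternatives the adjusted p of Zfp683 ran from 0.000309 to 0.695, with a log2 fold change between -1.80 and -1.35. An exact permutation test of the CPM values gave p = 0.1, the smallest that 3 against 3 libraries allow, and 11.3% of genes had groups that did not overlap. Eomes was at 5.01 ± 3.7 CPM in Het and 2.95 ± 1.54 CPM in KO GFP- cells, which were gated on its reporter. The part of Eomes in the Zfp683 difference was not tested, and donor sex and genotype cannot be told apart here.

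Crybg2, a protein of the beta/gamma-crystallin family, followed the levels of Zfp683. It was at 18.5, 10.5 and 11.1 CPM in Het GFP- and 4.53, 5.07 and 3.80 CPM in Het GFP+ replicates 1 to 3. In KO libraries it was at 29.0, 23.2 and 27.1 CPM in GFP- and 43.8, 43.5 and 51.8 CPM in GFP+ cells. No neighbouring groups overlapped, and the order of the groups was that of Zfp683. The GFP+ cells had 4.07, 2.07 and 2.92-fold less Crybg2 than the GFP- cells in the Het recipients and 1.51, 1.87 and 1.91-fold more in the KO recipients. The mean log2 ratios were -1.54 ± 0.49 and 0.81 ± 0.19 (SD, n = 3 each), and the fitted difference between them was 2.42 (SE 0.34), again as a description. The GFP+ means of 4.47 ± 0.642 and 46.4 ± 4.72 CPM were 10.4-fold apart. In GFP- cells Crybg2 was 1.98-fold lower in Het (log2 fold change -0.99, SE 0.22), which did not pass edgeR's test (FDR 0.391) and passed that of DESeq2 (adjusted p = 0.032); over the alternatives its adjusted p ran from 0.032 to 1. The authors' deposited tables name this gene Aim1l, with log2 fold changes of -1.44 between the Het sorts, 0.76 between the KO sorts and 2.92, KO higher, between the GFP+ groups.

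**Figure D2:**
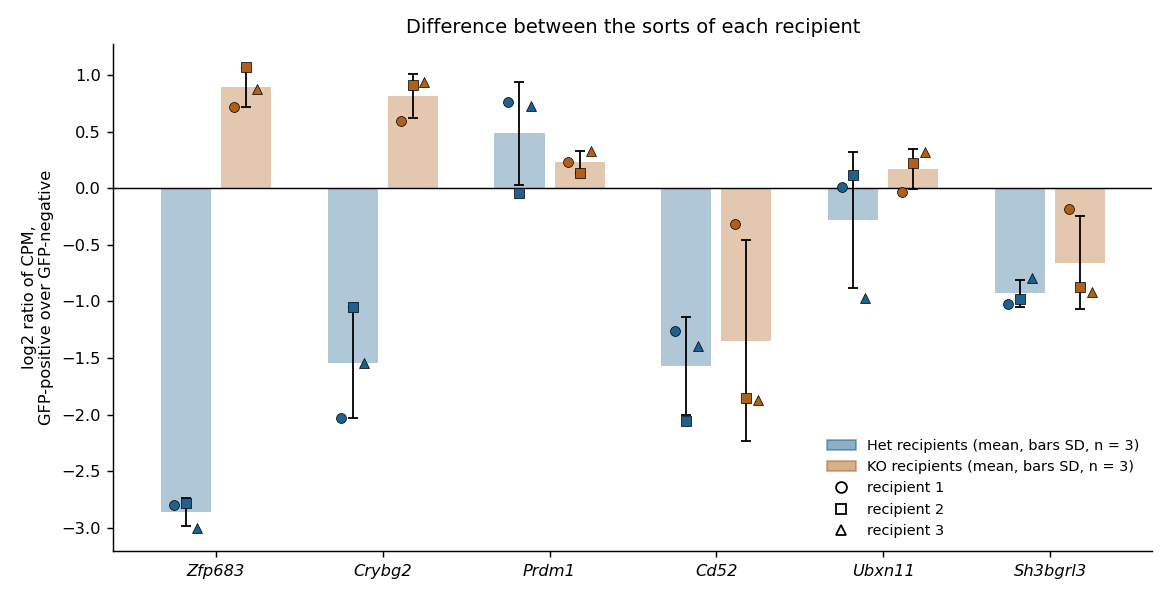
Log2 ratio of CPM in GFP+ over GFP- cells of the same recipient for the 6 genes, with bars for the mean of 3 recipients, error bars for the SD and symbols for single recipients. Zfp683 and Crybg2 lie below 0 in 3 of 3 Het recipients and above 0 in 3 of 3 KO recipients; Cd52 and Sh3bgrl3 lie below 0 in all 6, nearest to 0 in KO recipient 1.

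Over the 12 libraries the log2 levels of Zfp683 and Crybg2 had a Pearson correlation of 0.99 (log2 of CPM + 1), given as a description since the libraries fall into 4 groups and share their normalization. Crybg2 had the highest correlation with Zfp683 of all 13238 genes, and Zfp683 the highest with Crybg2. Both genes had been chosen for their difference between the GFP+ libraries, which are among these 12. Their mutual rank was thus partly set by the choice, and nothing is read from it. The 3 genes next to Crybg2 in likeness to Zfp683 were Il12rb2, the signalling chain of the IL-12 receptor, at 0.943, the noncoding gene 9530036M11Rik at 0.921 and Cass4, an adaptor of focal adhesions, at 0.919. For Crybg2 they were Il12rb2 at 0.933, the lectin-like receptor gene Klrb1f at 0.915 and 9530036M11Rik at 0.915. The 2 genes did not move in exact proportion. Per exon length, as RPKM (CPM per kilobase of exon), Zfp683 exceeded Crybg2 4.18 ± 0.605-fold in Het GFP-, 5.95 ± 0.906-fold in KO GFP- and 6.25 ± 0.695-fold in KO GFP+ cells, but 1.71 ± 0.562-fold in Het GFP+ cells (SD of the ratio, n = 3 each). The ratios of the Het GFP+ libraries, 1.33 to 2.36, lay below those of the other 3 groups, 3.65 to 6.82. In Het GFP+ replicates 1, 2 and 3 they rest on 17, 4 and 11 counts of Zfp683 and 34, 13 and 39 of Crybg2. Crybg2 also shares 172 exon bases with Cd52. The part of low counts and of this overlap in the ratios was not tested.

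**Figure D3:**
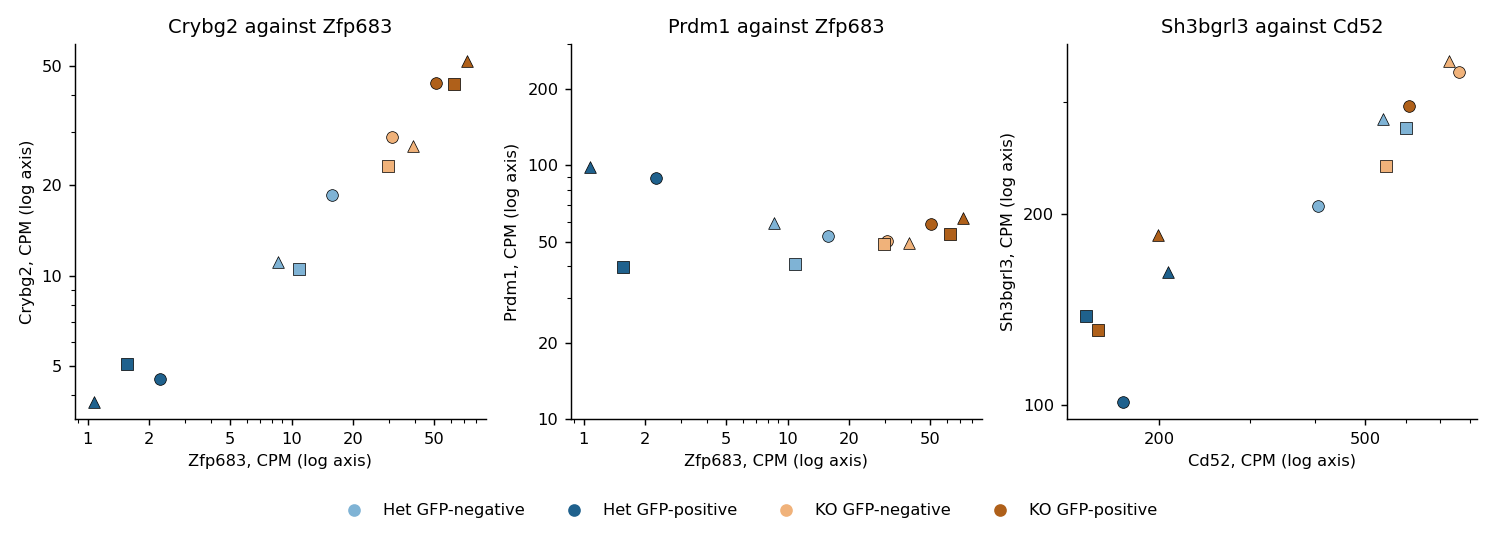
Levels of 3 pairs of genes in the 12 libraries, in CPM on log axes, coloured by group with the replicate as the symbol. Crybg2 rises with Zfp683 across the groups (r = 0.99 over 12 libraries), Prdm1 stays between 39.8 and 98.1 CPM while Zfp683 spans 1.07 to 72.1 CPM, and Sh3bgrl3 rises with Cd52 (r = 0.946).

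Prdm1 did not share the pattern of its homologue. It was at 52.4, 41.0 and 59.3 CPM in Het GFP- and 88.8, 39.8 and 98.1 CPM in Het GFP+ replicates 1 to 3. In KO it was at 50.2, 49.1 and 49.4 CPM in GFP- and 58.9, 53.5 and 62.0 CPM in GFP+ cells. Its group means, 50.9 ± 9.26, 75.6 ± 31.3, 49.6 ± 0.586 and 58.1 ± 4.27 CPM (SD, n = 3 each), are those of Het GFP-, Het GFP+, KO GFP- and KO GFP+ cells. The Het GFP+ libraries took in the range of all KO libraries, and the Het sorts overlapped, whereas the KO sorts did not. Het replicate 2 was the lowest library in both sorts. Of the Het recipients, 2 of 3 had more Prdm1 in the GFP+ cells and recipient 2 had 0.971 times as much; all 3 KO recipients had more, by 1.09 to 1.25-fold.

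None of the 3 tests of Prdm1 passed in the fit with 1 mean per group. Between the Het sorts the log2 fold change was 0.59 (SE 0.26, edgeR FDR 0.205), in a comparison that called 3.45% of all genes, 1.82% with the higher and 1.63% with the lower level in GFP+ cells. With the recipient as a block it was 0.51 (FDR 0.045), while 22.2% of all genes were called in that fit, and without Het GFP+ replicate 2 it was 0.87 (FDR 0.0317); over its alternatives the FDR ran from 0.0317 to 0.482. Between the KO sorts the log2 fold change was 0.24 (SE 0.26, FDR 0.624; 0.331 with the block), where 0.128% of genes were called, 0.00755% higher and 0.121% lower. The KO sorts of Prdm1 did not overlap, as for 20.3% of all genes, and the exact permutation test of the CPM values gave p = 0.1, the smallest that 3 against 3 libraries allow. The genotypes differed by 0.04 in GFP- cells (SE 0.26, FDR 1). In GFP+ cells they differed by 0.39 (SE 0.27), given as a description and opposite in sign to Zfp683; without Het GFP+ replicate 1, 2 or 3 this value was 0.26, 0.66 or 0.16. The genes most like Prdm1 over the 12 libraries were Cd274, the ligand PD-L1, at r = 0.927, Il15ra, the alpha chain of the IL-15 receptor, at 0.916, Ston1, an endocytic adaptor, at 0.911 and the forkhead factor gene Foxn3 at 0.907.

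The levels of the homologues were set against each other per exon length, as a description. In this measure, Zfp683 stood at 0.882 ± 0.306 times the RPKM of Prdm1 in Het GFP-, 0.0942 ± 0.0528 times in Het GFP+, 2.5 ± 0.398 times in KO GFP- and 3.96 ± 0.652 times in KO GFP+ cells (SD of the ratio, n = 3 each). Zfp683 transcripts were thus fewer than those of Prdm1 in each Het GFP+ library, where the ratio was 0.0407 to 0.146, and more numerous in each KO library, where it was 2.25 to 4.34. In RPKM the group means of Zfp683 were 7.97 ± 2.53, 1.11 ± 0.409, 22.6 ± 3.54 and 41.9 ± 7.32 in the same order of groups, and those of Prdm1 were 9.27 ± 1.69, 13.8 ± 5.7, 9.02 ± 0.107 and 10.6 ± 0.777.

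Cd52, a small glycoprotein anchored in the membrane of lymphocytes, was lower in the GFP+ cells of every recipient, whatever the genotype. It was at 406, 601 and 543 CPM in Het GFP- and 170, 144 and 208 CPM in Het GFP+ replicates 1 to 3. In KO it was at 760, 549 and 727 CPM in GFP- and 610, 152 and 199 CPM in GFP+ cells. The Het sorts did not overlap. The KO sorts did, because KO GFP+ replicate 1 lay among the GFP- libraries, with 1.25-fold less Cd52 than its GFP- partner against 3.61 and 3.65-fold less in the other 2 recipients.

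Between the Het sorts Cd52 had a log2 fold change of -1.57 (SE 0.42), which did not pass edgeR's test with 1 mean per group (FDR 0.0619). It fell by 1.56 on the log2 scale and passed with the recipient as a block (FDR 0.0031), with DESeq2 (adjusted p = 0.00441), with the low counts unfiltered (FDR 0.00592) and with the 2 Het groups fitted alone (FDR 0.0154), where the unfiltered value was -1.64; its alternatives ran from 0.0031 to 0.225. Groups that did not overlap, as those of Cd52, were found for 27.3% of genes, and the fit with the block called 22.2% of all genes. Between the KO sorts the log2 fold change was -1.07 (SE 0.41, FDR 0.251), and -1.34 with the block (FDR 0.0127), a fit in which 17.7% of all genes were called. Without KO GFP+ replicate 1 it was -1.94 (FDR 0.0107), and over its alternatives the FDR ran from 0.0107 to 0.631. The genotypes differed by -0.39 in GFP- cells (SE 0.41, FDR 1). In GFP+ cells they differed by -0.89 (SE 0.41), given as a description, and the groups overlapped. The authors' deposited table lists Cd52 with -1.51 between the Het sorts.

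Sh3bgrl3, a small protein of the thioredoxin fold, showed the same directions at smaller size. It was at 206, 273 and 282 CPM in Het GFP- and 101, 138 and 162 CPM in Het GFP+ replicates 1 to 3. In KO it was at 334, 238 and 348 CPM in GFP- and 296, 131 and 185 CPM in GFP+ cells. The Het sorts did not overlap, as for 27.3% of all genes, and the KO sorts did, with KO GFP+ replicate 1 again the highest of its group. The mean log2 ratios within recipients were -0.93 ± 0.12 in Het and -0.66 ± 0.41 in KO (SD, n = 3 each). Between the Het sorts the log2 fold change was -0.92 (SE 0.29, edgeR FDR 0.0998), and -0.93 with the block (FDR 0.00274); DESeq2 gave -0.91 (adjusted p = 0.0302), and the alternatives ran from 0.00274 to 0.304. The KO sorts differed by -0.58 (SE 0.28, FDR 0.301), -0.65 with the block (FDR 0.0242) and -0.95 without KO GFP+ replicate 1 (FDR 0.0386), with alternatives from 0.0242 to 0.654. With the block, 22.2% of all genes were called between the Het sorts and 17.7% between the KO sorts. The genotypes differed by -0.28 in GFP- cells (SE 0.28, FDR 1). In GFP+ cells they differed by -0.61 (SE 0.29), given as a description, and the groups overlapped. The authors' deposited table lists Sh3bgrl3 with -0.89 between the Het sorts. In each GFP comparison the GFP+ libraries were also those with the lower sum of CD4 T cell markers and the higher sum of myeloid markers given above, and the part of these in the values of Cd52 and Sh3bgrl3 was not tested.

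Cd52 and Sh3bgrl3 varied together, with a correlation of 0.946 over the 12 libraries, while the correlation of Zfp683 was 0.394 with Cd52 and 0.470 with Sh3bgrl3. In the Het recipients these 4 neighbouring genes had the same direction, lower in the GFP+ cells of 3 of 3, with mean log2 ratios of -2.86 for Zfp683, -1.54 for Crybg2, -1.57 for Cd52 and -0.93 for Sh3bgrl3. In the KO recipients the directions were opposite: Zfp683 and Crybg2 were higher in the GFP+ cells of 3 of 3 and Cd52 and Sh3bgrl3 lower in 3 of 3, although Cd52 lies partly within Crybg2. The reads of the 172 shared exon bases could not be assigned to either gene from the files. The 4 genes most like Cd52 were Gm12191 (r = 0.987), Trappc2 (0.982), Klrb1c (0.982) and Mrps17 (0.978), and those most like Sh3bgrl3 were Atp5k (0.974), Znrd1 (0.972), AI662270 (0.971) and Slc25a4 (0.971).

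Ubxn11, a UBX domain protein, passed no test. It was at 19.0, 11.1 and 12.6 CPM in Het GFP-, 19.1, 12.1 and 6.42 CPM in Het GFP+, 27.4, 12.2 and 22.4 CPM in KO GFP- and 26.8, 14.3 and 28 CPM in KO GFP+ replicates 1 to 3. All 4 groups overlapped. The log2 fold change was -0.19 (SE 0.41, edgeR FDR 0.812) between the Het sorts, 0.21 (SE 0.40, FDR 0.795) between the KO sorts and -0.54 (SE 0.40, FDR 0.999) between the GFP- groups. Between the GFP+ groups it was -0.93 (SE 0.42), given as a description. The values between the sorts were smaller than their SE. With the block they were -0.30 (SE 0.22, FDR 0.364) and 0.16 (SE 0.22, FDR 0.621). The genes most like it were Kat2b (r = 0.878), Tpgs1 (0.845), Atg4d (0.843) and Tbx21 (0.841), which encodes T-bet.

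Within 500 kb of Zfp683 the matrix held 49 genes, of which 24 passed the filter on low counts, 19 of them other than the 5 neighbouring genes. Between the GFP+ groups the 19 had a median log2 fold change of 0.18, against 0.01 for all genes tested, from -0.31 for Stmn1 to 2.54 for the low-count gene Lin28a. None of the 19 was called there by edgeR. Of the 19, 1 had an unadjusted p under 0.05, against 824 of all 13238 genes. DESeq2 called 1, Sfn, against 90 of 14892 genes in all. Between the Het sorts, where 3.45% of all genes were called, 1 of the 19 was called, Selenon. This selenoprotein of the endoplasmic reticulum, 498 kb from Zfp683, was higher in GFP+ cells (14.2 CPM against 4.82 CPM in GFP- cells, log2 fold change 1.55, FDR 0.025). DESeq2 called 2, Pafah2 and Selenon, against 1198 of 13576 genes in all. The edgeR call of Selenon was lost when Het GFP- replicate 1 or 2 or Het GFP+ replicate 2 or 3 was left out, and 2 genes were called without Het GFP- replicate 3. With the recipient as a block 7 of the 19 were called between the Het sorts and 2 between the KO sorts, in fits that called 22.2% and 17.7% of all genes. Without the block 0 were called between the KO sorts (2 at an unadjusted p under 0.05, 0 by DESeq2, 1 without KO GFP+ replicate 1) and 0 between the GFP- groups (1 and 0). Of all 13238 genes, 2321 had such an unadjusted p between the KO sorts and 695 between the GFP- groups. The nearest tested genes were Lin28a and Dhdds upstream and Cep85 downstream. Dhdds had log2 fold changes of 0.17 between the Het sorts and 0.21 between the KO sorts, and Cep85 had -0.18 and 0.05. The low-count gene Lin28a had larger values, 1.89 between the Het sorts (edgeR FDR 0.282) and 0.76 between the KO sorts (FDR 0.765). Its groups overlapped in both comparisons. With the recipient as a block Lin28a had 1.9 between the Het sorts (FDR 0.00944) and 1.85 between the KO sorts (FDR 0.0704).

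**Figure D4:**
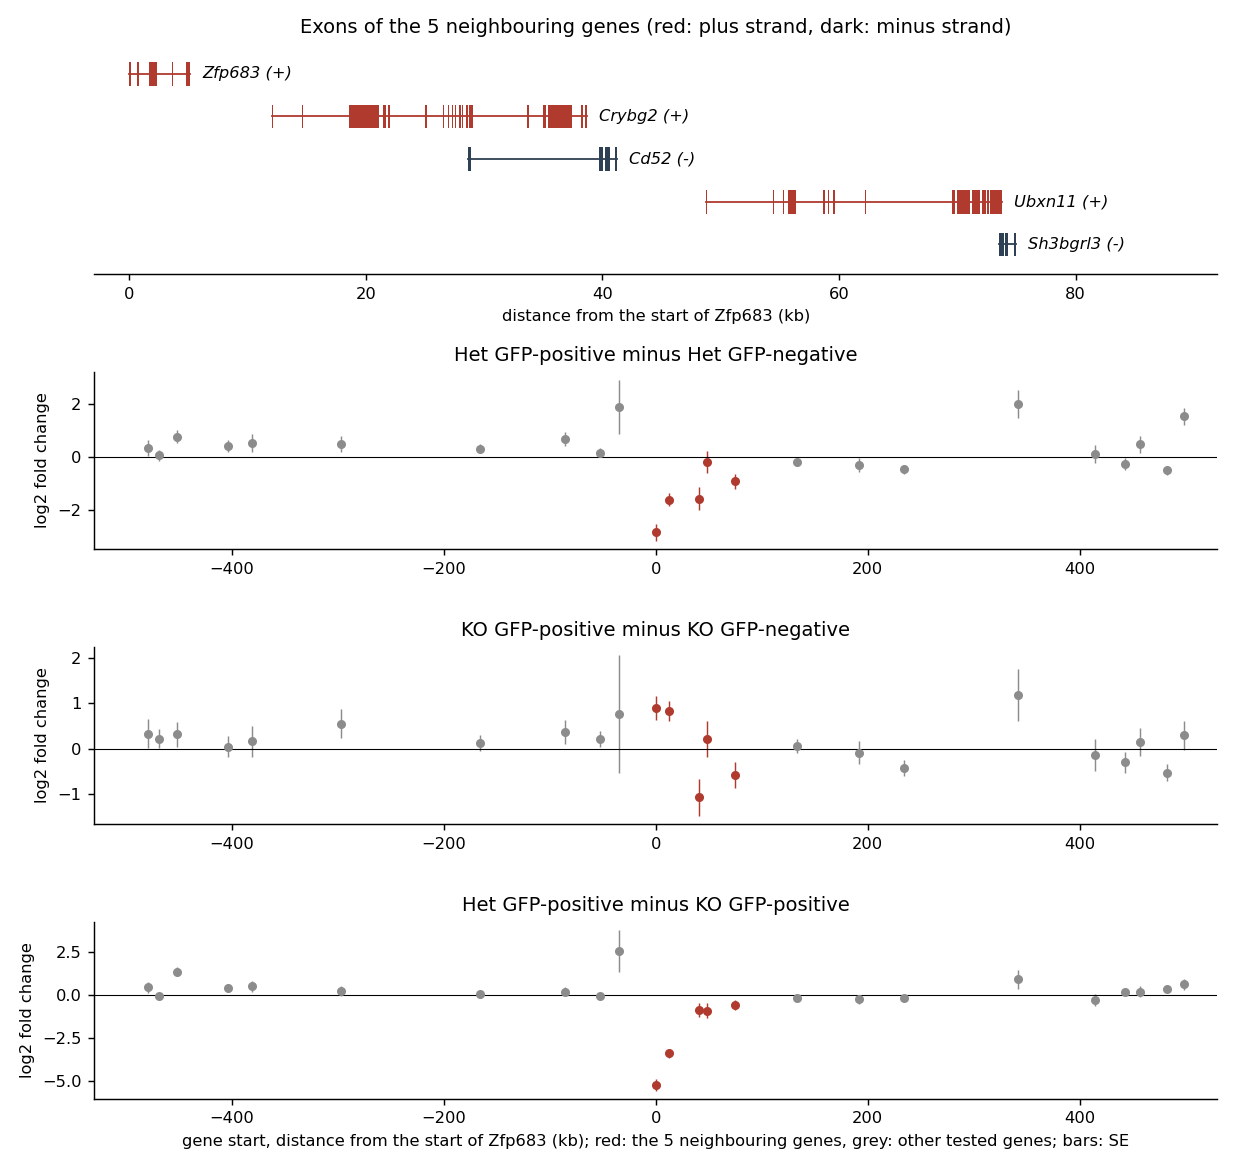
The upper panel maps the exons of the 5 neighbouring genes by distance from the start of Zfp683 (kb), and the lower panels give the log2 fold change of each tested gene within 500 kb (y axis; bars are SE) by the distance of its start, with the 5 genes in red. Zfp683 at -5.25 and Crybg2 at -3.41 lie lowest between the GFP+ groups, and the other tested genes there lie between -0.93 for Ubxn11 and 2.54 for Lin28a.

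Other genes of the Hobit and Blimp-1 programmes were followed as lists, which were drawn up with earlier results of these data known and are described by counts alone. Over all genes, DESeq2 called 1198 of 13576 between the Het sorts, 381 of 14015 between the KO sorts and 90 of 14892 between the GFP+ groups. Its counts for the lists are to be set beside these. In edgeR, 3072 of 13238 genes had an unadjusted p under 0.05 between the Het sorts and 2321 between the KO sorts. The number was 824 between the GFP+ groups and 695 between the GFP- groups. The regulators around Hobit and Blimp-1 comprised 16 genes, all tested. The sorts were gated on the reporter in the Eomes locus, so the higher level of Eomes in GFP+ cells was set by the gate. Between the Het sorts, where 3.45% of all genes were called, Eomes was called higher and Id2, an inhibitor of E proteins, lower (378 ± 50.9 CPM in GFP- and 111 ± 35.3 CPM in GFP+ cells, SD, n = 3 each; log2 fold change -1.77, FDR 0.0142); the call of Id2 was lost without Het GFP- replicate 2 or Het GFP+ replicate 1 or 2, with an FDR up to 0.0608. With the recipient as a block 7 of the 16, Eomes included, were called, against 22.2% of all genes, and DESeq2 called 3. A single gene was called between the GFP+ groups, where 0.106% of all genes were called. Il12rb2, which is also the gene next to Crybg2 in likeness to Zfp683, was at 42 ± 9.34 CPM in Het and 151 ± 20.8 CPM in KO cells (log2 fold change -1.83, edgeR FDR 0.0161), and its call was lost without Het GFP+ replicate 1 or 2 or KO GFP+ replicate 2 or 3, with an FDR up to 0.111. The median of the list was 0.11 between the Het sorts and -0.06 between the GFP+ groups, against -0.02 and 0.01 for all genes tested. Between the KO sorts, where 0.128% of all genes were called, Eomes was the gene called and 0 others were (DESeq2 called Id2 as well); Eomes was lost without KO GFP- replicate 3 (FDR 0.0575), while 4 genes were called without KO GFP+ replicate 1 and 3 with the block (17.7% of all genes). In GFP- cells 0 were called between the genotypes, with 2 at an unadjusted p under 0.05 and 0 by DESeq2.

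Genes known to be high in resident cells were split between the Het sorts: of 15 tested, 4 were called with the higher level in GFP+ cells and 4 with the lower, against 1.82% and 1.63% of all genes. DESeq2 called 8. The nuclear receptor Nr4a2 (5.89 to 49.2 CPM, log2 fold change 3.07, FDR 0.0119) was higher. The chemokine receptor Cxcr6 (527 to 79.7 CPM, -2.73, FDR 0.0113), the aryl hydrocarbon receptor Ahr (37.9 to 8.69 CPM, -2.10, FDR 0.00647) and the integrin chain Itgae, also called CD103 (8.62 to 1.59 CPM, -2.49, FDR 0.0179), were lower. With 1 library left out, the number called was 2 without Het GFP- replicate 2 and 4 without Het GFP- replicate 1 or Het GFP+ replicate 1 or 3. Cxcr6 was lost without Het GFP- replicate 2 (FDR 0.0603), and Itgae without that library or Het GFP+ replicate 1 or 3 (FDR up to 0.0664). The median of the list was -0.38, against -0.02 for all genes tested. Of the 15, 1 was called between the KO sorts, Ahr again (23.8 to 4.68 CPM, -2.37, FDR 0.0187), against 0.128% of all genes. DESeq2 called 4 there, namely Ahr, Cxcr6, Nr4a2 and Plk2, against 381 of 14015 genes in all. Ahr was lost there without KO GFP- replicate 1 or 2 or KO GFP+ replicate 2 or 3 (FDR up to 0.165), 4 genes were called without KO GFP+ replicate 1, and 7 with the block, a fit that called 17.7% of all genes. In GFP+ cells 0 were called between the genotypes, with 3 at an unadjusted p under 0.05 and 0 by DESeq2, and between the GFP- groups 0, 2 and 0. Of all 13238 genes, 824 had such a p between the GFP+ groups and 695 between the GFP- groups.

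Genes known to be lower in resident than in recirculating cells numbered 14, all tested. Of all genes, 3.45% were called between the Het sorts and 0.128% between the KO sorts. Besides Eomes, which is itself on this list and on which the sorts were gated, Il7r, the alpha chain of the IL-7 receptor, was called in both genotypes and was lower in GFP+ cells (504 to 134 CPM in Het, log2 fold change -1.91, FDR 0.00974; 288 to 68.5 CPM in KO, -2.05, FDR 0.0384). DESeq2 called 4 of the 14 between the Het sorts and 3 between the KO sorts, Eomes and Il7r among them in both. Over all genes it called 1198 of 13576 and 381 of 14015. With the recipient as a block 7 were called between the Het sorts and 9 between the KO sorts, against 22.2% and 17.7% of all genes, and without KO GFP+ replicate 1 the latter was 5 in place of 2. Il7r was lost between the KO sorts without KO GFP- replicate 1 or 2 or KO GFP+ replicate 2 or 3 (FDR up to 0.235). Between the GFP+ groups, where Zfp683 differed most, 0 of the 14 were called by edgeR. An unadjusted p under 0.05 was found for 5 of them, and for 824 of all 13238 genes. DESeq2 called 1 of the 14, S1pr5, a receptor for sphingosine 1-phosphate. Its means were 3.98 ± 2.05 CPM in Het and 56.3 ± 55.1 CPM in KO GFP+ cells (SD, n = 3 each; log2 fold change -4.05, edgeR FDR 0.144). The direction was the same in GFP- cells, with 8.56 ± 5.28 CPM in Het and 62 ± 37.4 CPM in KO (log2 fold change -2.86, edgeR FDR 0.457). The median of the list was 0.26 between the GFP+ groups. In GFP- cells 0 were called between the genotypes, with 3 at an unadjusted p under 0.05 and 0 by DESeq2.

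Of 16 effector genes linked to Hobit or Blimp-1, 4 were called higher and 1 lower between the Het sorts, against 1.82% and 1.63% of all genes. DESeq2 called 9, against 1198 of 13576 genes in all. Higher in GFP+ cells were the granzyme gene Gzmk (11.6 to 83.8 CPM, log2 fold change 2.86, FDR 0.00752), the inhibitory receptor gene Pdcd1 (22.3 to 89.4 CPM, 2.01, FDR 0.00818), the inhibitory receptor gene Lag3 (11.7 to 61.8 CPM, 2.42, FDR 0.0219) and Il10 (0.933 to 16.8 CPM, 4.18, FDR 0.0347). Lower was Cd5. The median of the list was 0.70. With the block 11 were called, against 22.2% of all genes, 2 without Het GFP- replicate 2 or 3, and 3 without Het GFP+ replicate 1 or 3. Lag3 was lost without Het GFP- replicate 2 or 3 or Het GFP+ replicate 3 (FDR up to 0.0664). Cd5 was lost without any 1 library, and Il10 without any but Het GFP+ replicate 2. Between the KO sorts 0 were called (3 at an unadjusted p under 0.05, 0 by DESeq2; 2 with the block, against 17.7% of all genes), between the GFP+ groups 0 (6 and 2, with Havcr2 and Il10 called by DESeq2) and between the GFP- groups 0 (2 and 0). Of all 13238 genes, 2321, 824 and 695 had an unadjusted p under 0.05 in these comparisons, in the same order. Of the PR-domain family, to which Prdm1 belongs, 9 of 15 genes were tested, Prdm1 included, and 0 were called in each of the 4 comparisons (1 other than Prdm1 between the Het sorts with the block or without Het GFP+ replicate 3). DESeq2 did not call Prdm1 between the Het sorts (adjusted p = 0.168), the KO sorts (adjusted p = 0.646) or the GFP- groups. Of the other members it called Prdm11 between the Het sorts and Prdm16 between the GFP+ groups. In edgeR, 1 gene other than Prdm1 had an unadjusted p under 0.05 in each of these 2 comparisons and in the GFP- comparison, and 0 between the KO sorts.

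**Figure D5:**
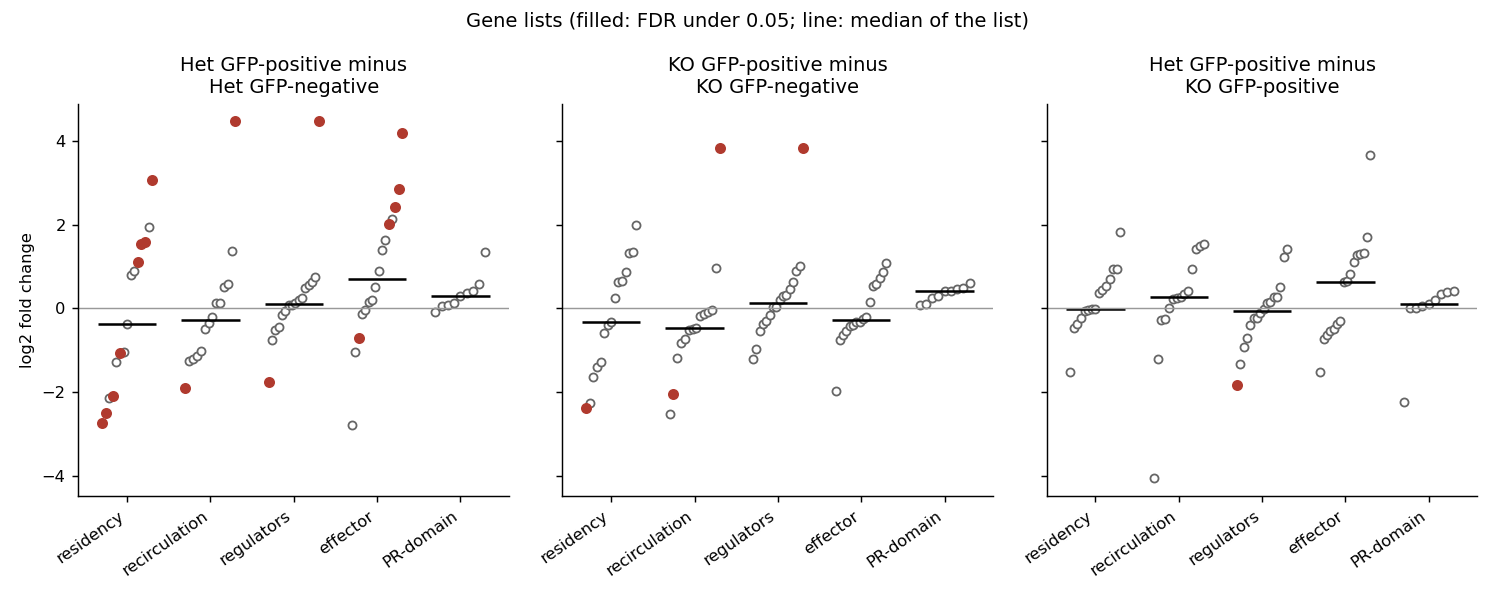
Log2 fold change of each tested gene of the 5 lists in 3 comparisons, with filled points for genes called at an FDR of 0.05 and lines for the median of each list. Called genes of the residency list lie on both sides of 0 between the Het sorts (4 higher and 4 lower), and 1 gene, Il12rb2, is called between the GFP+ groups.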

How the data were processed

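RNA was extracted with TRI reagent, and libraries were made with a ribosome-depleting, stranded kit (TruSeq Stranded Total RNA Gold), per the labels' protocols. The submitters' processing notes name bcl2fastq 1.8.4, TopHat2 2.0.13, featureCounts 1.5.0-p1, DESeq2 1.6.1 and the build mm10, without their settings. The authors deposited whole-number counts per gene, unnormalized, for the 12 libraries; matrix and single files differed in 0 cells. The authors also deposited tables of 3 comparisons, holding, per the file headers, the mean of normalized counts (a signal), the log2 fold change, its standard error and test statistic (a score) and p-values; these were used for description alone.

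Counts were tested with edgeR 4.0.16 (R 4.3.3): TMM, filterByExpr (minimum count 10, total 15; 13238 genes), 1 mean per group over 12 libraries, quasi-likelihood F-test, two-sided, Benjamini-Hochberg adjustment over all genes, FDR 0.05. RPKM divides scaled CPM by the deposited exon length. Total counts of 2116894 to 18167236 per library limit the precision. The code was tested on simulated data. Replicate numbers pair the sorts of a recipient, per the series' design text; deviations of paired libraries from their group means correlated at 0.256 to 0.666 in 6 of 6 recipients. Alternatives were DESeq2 1.42.0 and its size factors, no filter, the recipient as a block, the compared groups alone, no dominating features (above 5% of a library; 4 features), each library left out, and other window sizes. Nothing says whether recipients shared donors, so p-values measure the spread between these samples. The 6 genes and the lists were chosen with earlier results of these data known. Named are the 6 genes, Eomes, up to 4 called genes per list and comparison with the smallest FDR, called genes within 500 kb, and the 4 genes most like each of the 6; Cd5, Stmn1, Lin28a, Sfn, Dhdds, Cep85, S1pr5, Plk2, Pafah2, Havcr2, Prdm11, Prdm16 and marker genes were named after their values were seen. Tables were made with Python 3.11.15, pandas 2.3.3 and NumPy 2.4.6. Members of 1 list on NKT and gamma-delta cells were matched for 6 of 7 symbols.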

Additional observations from a re-analysis of the deposited data

Results flagged for a closer look

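Zfp683 and Crybg2 moved in opposite directions in the 2 genotypes. From GFP- to GFP+ cells both were lower in 3 of 3 Het recipients and higher in 3 of 3 KO recipients, and the fitted difference between the KO and Het log2 fold changes was 3.74 for Zfp683 and 2.42 for Crybg2. The difference was not tested, because both genes were chosen on libraries that enter it.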

How the results depend on the processing

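The direction of Zfp683 and Crybg2 held in each comparison and setting run. For the 6 genes in 5 contrasts, 149 of 162 log2 fold changes under a changed normalization, test, filter or set of samples, or with the recipient as a block, kept their direction and, where tested, their side of the threshold, and 13 passed where the reported fit did not. Between the GFP- groups these were Zfp683 (-1.51 with DESeq2, -1.52 unfiltered) and Crybg2 (-1.0 with DESeq2). Between the Het sorts they were Cd52 (-1.56 with DESeq2, with the 2 groups alone and with the replicate block, -1.64 unfiltered), Sh3bgrl3 (-0.91 with DESeq2, -0.99 unfiltered, -0.93 with the block) and Prdm1 (0.51 with the block). Between the KO sorts they were Cd52 (-1.34) and Sh3bgrl3 (-0.65), both with the block. The block changed no other call of the 6 genes.

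With 1 library left out, values ranged from 0.39 to 0.87 for Prdm1 and -0.71 to 0.20 for Ubxn11 between the Het sorts, from -1.94 to -0.75 for Cd52, -0.95 to -0.35 for Sh3bgrl3 and -0.06 to 0.47 for Ubxn11 between the KO sorts, and from -0.12 to 0.14 for Prdm1 between the GFP- groups. The difference between the KO and Het sort contrasts ranged from -0.37 to 0.83 for Cd52 and from -0.03 to 0.57 for Sh3bgrl3, negative without KO GFP+ replicate 1. The cause of these shifts was not tested.

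Over all genes, 457 were called between the Het sorts, against 1198 by DESeq2, 897 unfiltered, 2944 with the block and 88 to 360 with 1 library left out. Between the KO sorts 17 were called, against 381, 201, 2349 and 5 to 1760, and 10 with the 2 groups alone. Between the GFP+ groups 14 were called, against 90 by DESeq2, 72 unfiltered, 2 alone and 3 to 7 with 1 library left out. Between the GFP- groups 0 were called, against 40, 26, 7 and 0 to 7. Depth limits Zfp683 most in Het GFP+ cells, where it rests on 32 counts in all.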
